A study of Mus musculus with 6 samples.

Results

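The genes examined in the renal cortex were 46 genes by which cells handle misfolded protein. They comprised 16 genes of the cytosolic heat shock response, 3 chaperones of the mitochondrion and 27 genes of the endoplasmic reticulum (ER) stress response. The last of these were 14 chaperones and folding enzymes of the ER, 3 genes of ER-associated degradation, a group of 4 genes with the stress sensors and Xbp1, and 6 genes of the integrated stress response. The rule gave the genes by name and used no measured value, but it was written with earlier results of these data known. Of the 37007 gene names on the arrays, these 46 had 95 of the 56470 probes used, and each of the 46 had a probe well above background on all 6 arrays.

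Expression was measured on one-colour Agilent micro-arrays in male mice aged 16 weeks, each on its own array, with 3 arrays to a group. Single arrays are named by their labelled group and replicate number. The labels gave the first group the genotype db/m and the source name of a control, and the second group the genotype db/db and the source name of a model. Db/db mice on the C57BLKS/J background carry a mutation of the leptin receptor on both chromosomes and become obese and diabetic, whereas db/m mice carry it on a single chromosome and stay lean. A treatment of 8 weeks with Huangqi decoction (HQD), a herbal preparation, is stated with the labels of all arrays. Both the methods of the paper and the deposited design text, however, describe the arrays as treated against non-treated db/db mice, with no db/m mice and with no dose named. Genotype and treatment could therefore not be told apart, and the groups are called labelled db/m and labelled db/db. Each difference is the mean of labelled db/m minus the mean of labelled db/db on the log2 scale, and each level is the log2 intensity relative to the 75th percentile of its array. In pieces of whole cortex, fewer cells of a type and less RNA per cell cannot be told apart.

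Chaperones hold unfolded chains and help them to fold. In the cytosol, heat or proteotoxic stress frees the transcription factor HSF1, which binds heat shock elements and induces the HSP70 proteins, their nucleotide exchange factors and the small heat shock proteins. In the ER, the chaperone BiP (Hspa5) releases the sensors IRE1 (Ern1), PERK (Eif2ak3) and ATF6 when unfolded chains build up. The sensors act through spliced XBP1, through phosphorylation of eIF2 and translation of ATF4, and through the cleaved ATF6 fragment, and together they induce ER chaperones, degradation factors and amino acid genes. In the kidney, the inner medulla, which is bathed in hypertonic fluid, is known for high levels of HSP70, Hspb1 and Cryab, while the secretory and absorptive load of the proximal tubule rests on the ER chaperones.

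The elements through which these branches act could be read in the promoters of the genes. RefSeq promoters of the GRCm38.p6 assembly, from 250 bases before to 50 bases after the start, were present for 37 of the 46 genes. The motifs were searched as letters on both strands. The heat shock element with 3 units was GAANNTTCNNGAA or TTCNNGAANNTTC, which contains the element with 2 units, GAANNTTC or TTCNNGAA. The ER stress response element was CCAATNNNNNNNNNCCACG, its second form ATTGGNCCACG, and the amino acid response element bound by ATF4 was TGATGNAA. The element with 2 heat shock units was present in 10 of 13 heat shock and mitochondrial genes and in 2 of 24 ER stress genes, against 17% of the 27025 genes with a promoter. The element with 3 units was found in Hsph1, Hspd1 and Hspe1, against 0.662% of all genes. In contrast, the ER stress response element was in 8 of 24 ER stress genes and 0 of 13 heat shock and mitochondrial genes, against 0.137% of all genes, and its second form was in Herpud1 and Dnajb11, against 0.0444%. The amino acid response element was found in Chac1, Trib3, Asns and Herpud1, against 4.51% of all genes. A sixth motif, the unfolded protein response element TGACGTGG, was in 0 of the 37 genes and in 0.714% of all genes. A match is a run of letters and not a measured binding site. The stretches below are those of the genes on which the results turn, with the motif in capitals.
Hspa1a, chr17:34972238-34972275, minus strand, the same letters as in Hspa1b at chr17:34959320-34959357: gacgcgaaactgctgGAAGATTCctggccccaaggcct
Hspb1, chr5:135887787-135887824, plus strand: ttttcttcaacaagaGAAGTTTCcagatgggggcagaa
Hspb1, chr5:135887807-135887844, plus strand: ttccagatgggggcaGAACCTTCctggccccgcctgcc
Hsph1, chr5:149636282-149636306, minus strand: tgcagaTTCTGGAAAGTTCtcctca
Hspe1, chr1:55088044-55088086, plus strand, between the divergent starts of Hspe1 and Hspd1: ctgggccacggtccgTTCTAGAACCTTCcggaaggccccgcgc
Hspa5, chr2:34772010-34772058, plus strand: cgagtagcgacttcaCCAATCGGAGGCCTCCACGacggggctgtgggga
Hsp90b1, chr10:86705623-86705671, minus strand: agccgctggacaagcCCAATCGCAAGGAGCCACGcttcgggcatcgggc
Pdia6, chr12:17266476-17266524, plus strand: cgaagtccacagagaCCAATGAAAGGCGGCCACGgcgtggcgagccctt
Calr, chr8:84847060-84847108, minus strand: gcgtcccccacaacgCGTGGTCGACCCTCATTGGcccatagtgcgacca
Herpud1, chr8:94386362-94386402, plus strand: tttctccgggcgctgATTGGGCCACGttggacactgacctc
Chac1, chr2:119351034-119351071, plus strand: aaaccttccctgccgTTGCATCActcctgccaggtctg
Asns, chr6:7693210-7693247, minus strand: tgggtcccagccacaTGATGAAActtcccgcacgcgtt
Trib3, chr2:152344033-152344052, minus strand: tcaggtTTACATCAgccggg

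Between 51.6% and 59.1% of probes were well above background on an array, and 20360 genes were tested with limma. Of the 3 slides, slide 1 carried db/m replicate 1 next to db/db replicate 3, and the other slides held a single group each, so that the value within slide 1 is 1 array against 1 and has no replicate. Differences depended on brightness. Among the brightest 5090 genes, which held 28 of the 46, the median difference was -0.15 and 21.7% of genes were higher in labelled db/m, whereas among the dimmest 5090 it was 0.21 with 71.3% higher. All 20 proximal tubule markers were measured, as befits cortex, with a median difference of -0.26. The brightest Lepr probe overlapped between the groups (difference 0.42, limma adjusted p = 0.447), and since the db allele changes splicing and deletes no gene, it is no check of the genotype.

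Among the 46 genes, 30 were higher and 16 were lower in labelled db/m, with a median difference of 0.080 against -0.020 over all genes tested. None passed an adjusted p under 0.05 in limma, as was the case for 0% of all genes, and the lowest adjusted p was 0.24. At an unadjusted limma p under 0.05, Hsph1, Hspb1, Hspa4l, Sdf2l1 and Xbp1 were higher, and 0 of the 46 were lower. Of all genes tested, 15.9% passed this threshold, 6.67% as higher and 9.18% as lower. By an equal-variance t-test the count was 3, and 0 after adjustment. None of the 46 passed the screen of a 2-fold change with an unadjusted p under 0.05, which 1.05% of all genes passed. In 5 genes all arrays labelled db/m lay above all those labelled db/db, against 7.24% of all genes, and in 1 they lay below, against 15%. The count of 5 higher at an unadjusted limma p under 0.05 moved with every single array. Leaving out db/m replicate 2 made it 10 and leaving out db/db replicate 3 made it 9. It fell to 3 without db/m replicate 1, to 2 without db/db replicate 2, and to 1 when either db/m replicate 3 or db/db replicate 1 was missing. The share of all genes passing in each of these runs is not given here, so the changes cannot be read as particular to the 46.

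**Figure D1:**
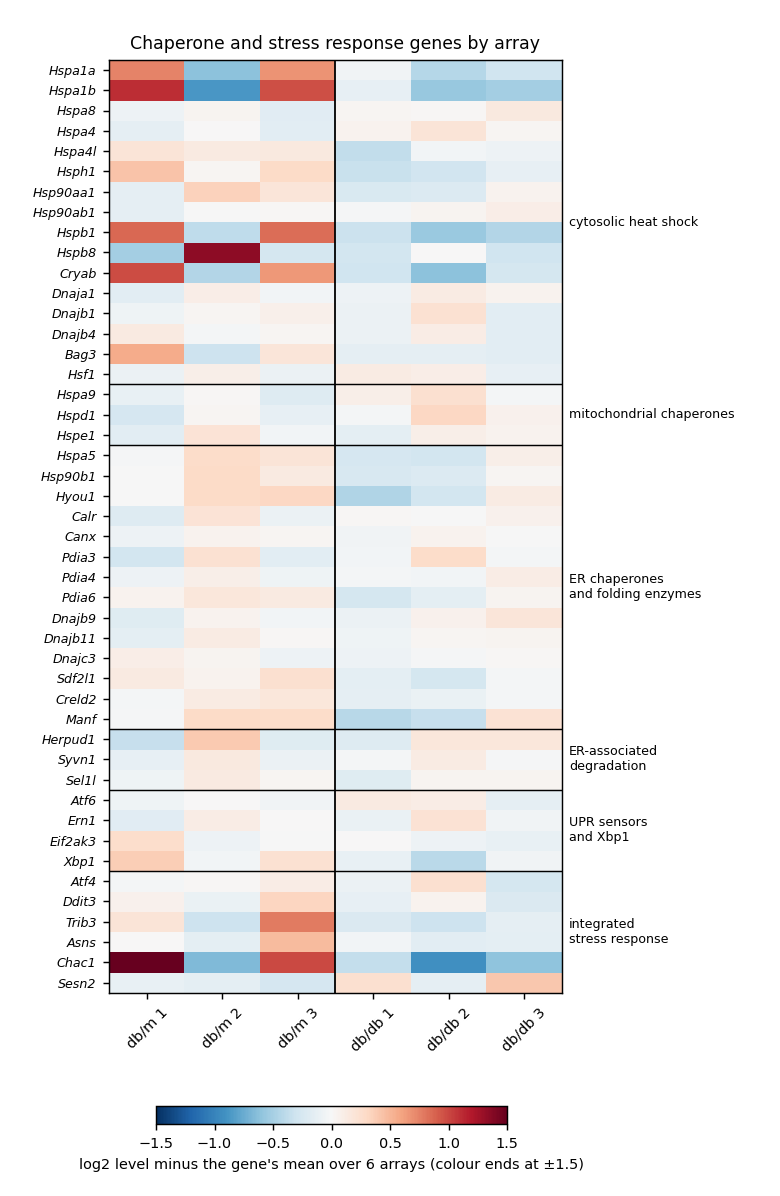
Log2 level of each of the 46 genes on each of the 6 arrays, as the deviation from the mean of the gene over the arrays (colour, red above and blue below), with columns for the 3 arrays labelled db/m and the 3 labelled db/db. Hspa1a, Hspa1b, Hspb1, Cryab and Chac1 are red on db/m replicates 1 and 3 and blue on replicate 2, whereas Hspb8 is red on replicate 2 alone.

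The cytosolic heat shock genes had the higher median of the main branches. Of the 16 genes, 11 were higher and 5 lower in labelled db/m, and the median difference was 0.27. Hsph1, Hspb1 and Hspa4l were higher at an unadjusted p under 0.05. The largest differences were those of Hspb1, Hspa1b, Cryab and Hspa1a, while constitutive HSP70, HSP90 beta and HSF1 had small negative differences. Within slide 1 the median was 0.18, against -0.063 over all genes tested. Without db/m replicate 2 the median of the heat shock genes was 0.14.

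Hsph1 encodes HSP110, the nucleotide exchange factor that restarts the HSP70 cycle (probe at chromosome 5 of mm9, 150419744 to 150419803). Its log2 levels were 3.87, 3.47 and 3.73 in db/m replicates 1, 2 and 3, and 3.11, 3.16 and 3.32 in labelled db/db. All arrays labelled db/m lay above all those labelled db/db. The difference was 0.50 (SE 0.14, 1.41-fold, limma adjusted p = 0.24). A second probe of the gene gave 0.43 with the same absence of overlap. The unadjusted p stayed under 0.05 without any single array, and within slide 1 the difference was 0.55. The heat shock element with 3 units printed above for Hsph1 was also in the windows of Hspd1 and Hspe1, which had differences of -0.23 and 0.0038. Hspa4l, a testis-enriched relative of HSP110, had log2 levels of 1.59, 1.53 and 1.55 against 1.03, 1.36 and 1.33. The groups did not overlap, and db/db replicate 1 was lowest. The difference was 0.32 (SE 0.12, limma adjusted p = 0.268), and without db/db replicate 1 it was 0.22 and no longer under an unadjusted p of 0.05. The other tested probes of the gene, all dimmer, gave 0.18 with overlap, and 0.20 and 0.85 without. Hspa4, the third member of the HSP110 family, had a difference of -0.18 on its brightest probe (limma adjusted p = 0.384) and was the only one of the 46 whose arrays labelled db/m all lay below those labelled db/db. Its other tested probes gave -0.19 and 0.25 with overlap, so that the direction of Hspa4 depended on the probe.

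Hspb1 encodes HSP27, a small heat shock protein that holds unfolding chains and protects actin (probe at chromosome 5 of mm9, 136365366 to 136365425). The log2 levels were 4.39, 3.15 and 4.36 in labelled db/m and 3.21, 2.97 and 3.08 in labelled db/db. Db/m replicates 1 and 3 stood above the other arrays, while replicate 2 lay among the arrays labelled db/db. The difference was 0.88 (SE 0.33, 1.84-fold, limma adjusted p = 0.263). Without db/m replicate 2 it was 1.29 with an adjusted limma p of 0.0447. This made Hspb1 the only one of the 46 to pass an adjusted p under 0.05 under any alternative tried. The share of all genes passing in that run is not given here. With all arrays labelled db/db kept, the other arrays labelled db/m were then left out in turn. Without either of the other arrays labelled db/m it was 0.67 and 0.68, no longer under an unadjusted p of 0.05, and leaving out any single array labelled db/db also ended the call, with differences from 0.82 to 0.94. Cryab, the small heat shock protein alpha B crystallin, followed the same arrays, at 5.89, 4.47 and 5.56 against 4.61, 4.30 and 4.64. Its difference was 0.79 (SE 0.35, limma adjusted p = 0.298).

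Hspa1a and Hspa1b are near-identical genes for inducible HSP70, so a probe of one may also read the other. The log2 levels of Hspa1a were 3.40, 2.05 and 3.33 in labelled db/m and 2.61, 2.23 and 2.36 in labelled db/db. Those of Hspa1b were 3.00, 1.02 and 2.85 against 1.77, 1.32 and 1.38. In both genes db/m replicates 1 and 3 were the highest arrays and replicate 2 of the same group was the lowest of all 6. The differences were 0.52 (SE 0.36, limma adjusted p = 0.443) for Hspa1a and 0.80 (SE 0.51, limma adjusted p = 0.411) for Hspa1b. Without db/m replicate 2 they were 0.97 and 1.44, and when it stood alone for its group they were -0.36 and -0.47. Bag3, a co-chaperone that links HSP70 to selective autophagy, was also highest on db/m replicate 1 and lowest on replicate 2, with a difference of 0.28. Hspb8, the small heat shock partner of Bag3, had the opposite pattern, with log2 levels of -1.48, 0.37 and -1.23 against -1.25, -0.97 and -1.27. Here db/m replicate 2 stood above the other 5 arrays, and the difference of 0.38 (limma adjusted p = 0.656) rested on it.

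**Figure D2:**
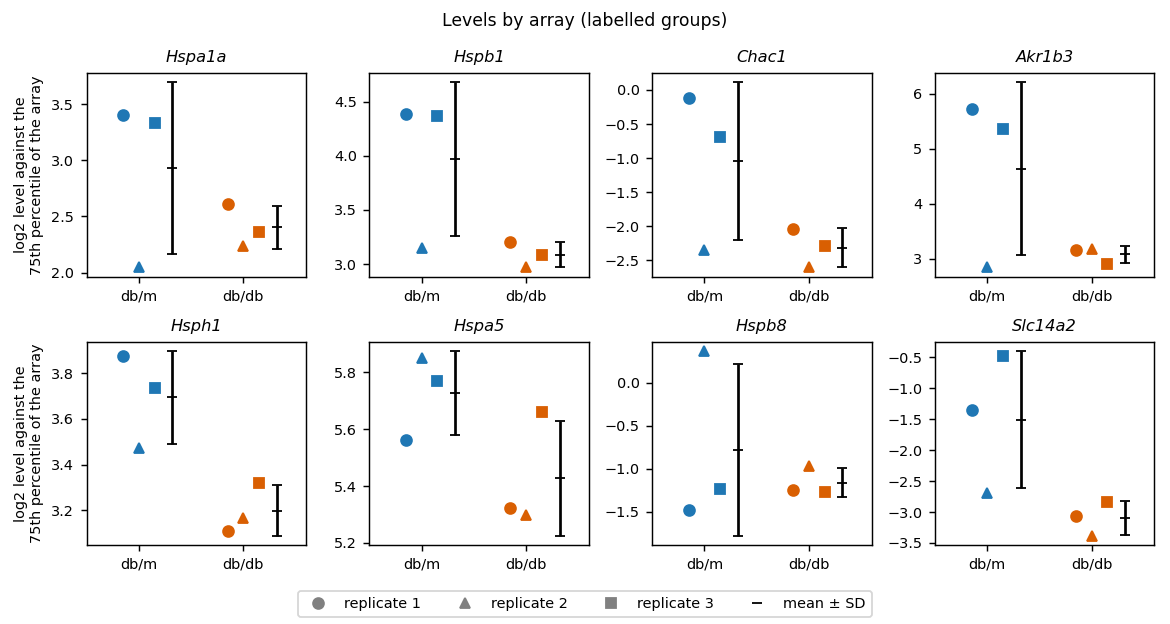
Log2 level against the 75th percentile of the array for 6 of the genes and for Akr1b3 and Slc14a2, markers of osmotic response and inner medulla. Points are single arrays, the bars show the mean ± SD of the 3 arrays of a group, and each panel has its own scale. In Hspa1a, Hspb1, Chac1 and Akr1b3, db/m replicate 2 lies with the arrays labelled db/db.

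The other cytosolic genes had small differences. Hspa8, the constitutive HSP70 that is abundant in unstressed cells, was at 6.84, 6.96 and 6.75 against 6.95, 6.94 and 7.06. The groups overlapped, with a difference of -0.13 (SE 0.11, limma adjusted p = 0.506) that was 0.044 after quantile normalization. Its other tested probes gave from -0.26 to -0.20, with overlap in all but the lowest. Hsf1, the master regulator of the response, was at 1.55, 1.73 and 1.55 against 1.76, 1.73 and 1.52, again with overlap and a difference of -0.060 (limma adjusted p = 0.795). Its mRNA level does not report its activation, which is by trimerisation and phosphorylation. The cytosolic HSP90 forms split, with 0.26 for the inducible Hsp90aa1, which was highest on db/m replicate 2, and -0.081 for the constitutive Hsp90ab1. The J-domain partners of HSP70, Dnaja1, Dnajb1 and Dnajb4, lay between -0.067 and 0.088 on their brightest probes. Other tested probes of Dnajb4 reached -0.25 and 0.29, and one of Dnaja1 gave 0.11.

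Of the 3 mitochondrial chaperones, 0 passed an unadjusted limma p under 0.05. Hspd1 (HSP60), which folds proteins imported into the matrix, was at 6.21, 6.48 and 6.33 in labelled db/m and 6.42, 6.77 and 6.52 in labelled db/db. The groups overlapped, with a difference of -0.23 (SE 0.14, limma adjusted p = 0.388) that was 0.0030 after quantile normalization. Hspa9, the matrix HSP70, had -0.19. Hspe1 (HSP10), the lid of the HSP60 chamber, had 0.0038 on its brightest probe, and -0.067 and 0.55 with overlap on the others. It shares the heat shock element printed above with Hspd1.

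Db/m replicates 1 and 3, the highest arrays of Hspa1a, Hspa1b, Hspb1 and Cryab, were also high in genes of the inner medulla and of the response to hypertonicity, while Hspb8 and Hsp90aa1 were highest on replicate 2. Of the 12 such markers on the arrays, 10 were tested, all well above background on 6 arrays, while the urothelial Upk1b and Upk3a were too dim to test. In 8 of the 10 the difference was positive, 2 of them at an unadjusted limma p under 0.05, and the median was 0.74. Slc6a6 (-0.35) and Fxyd2 (-0.058) were lower. The median deviation of the list was 0.91, -0.67 and 0.70 on db/m replicates 1, 2 and 3, and -0.068, -0.57 and -0.22 on labelled db/db. Akr1b3, the aldose reductase that makes sorbitol as an osmolyte, had log2 levels of 5.71, 2.84 and 5.35 against 3.16, 3.18 and 2.91. Slc14a2, the urea transporter of the inner medullary collecting duct, had -1.35, -2.69 and -0.49 against -3.07, -3.39 and -2.84. As for Hspb1 and Hspa1b, replicates 1 and 3 of labelled db/m were the highest arrays of both genes. Nfat5, the transcription factor of the osmotic response, had a difference of 0.84 (limma adjusted p = 0.248). The same arrays were highest in single markers of other segments. Fxyd4 of the collecting duct was at 5.68, 3.76 and 5.90 in labelled db/m, and Slc12a1 of the thick limb at 6.80, 4.83 and 5.99. In the lists of collecting duct and of thick limb and distal tubule, 6 of 14 and 4 of 12 genes were higher. Their medians were -0.098 and -0.075. The part of medulla or osmolality in the heat shock differences was not tested.

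Of the ER chaperones and folding enzymes, 10 were higher and 4 lower in labelled db/m, with a median difference of 0.11 and a range from -0.14 to 0.40. Sdf2l1 was higher at an unadjusted limma p under 0.05, and 0 of 14 were lower. The main lumenal chaperones Hspa5, Hsp90b1 and Hyou1 were each between 1.2-fold and 1.32-fold higher without passing that threshold. Their array pattern differed from that of the heat shock genes. Db/m replicate 2 was the highest array in 6 of the 14 genes and the lowest in 0, against 3473 and 2784 of all 20360 genes tested. Db/m replicate 1 was the lowest in 6, against 4613 of all genes, the most of any array. Db/db replicate 3 lay close to labelled db/m. Within slide 1, where db/m replicate 1 and db/db replicate 3 meet, the median was -0.11, against -0.063 over all genes tested.

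Hspa5 encodes BiP, the HSP70 of the ER lumen (probe at chromosome 2 of mm9, 34631913 to 34631972). It had log2 levels of 5.56, 5.85 and 5.77 in labelled db/m and 5.32, 5.30 and 5.66 in labelled db/db. The groups overlapped through db/db replicate 3, which exceeded db/m replicate 1. The difference was 0.30 (SE 0.15, 1.23-fold, limma adjusted p = 0.319), and the other tested probes gave 0.28 and 0.27. It was 0.42 without db/db replicate 3, then under an unadjusted p of 0.05, and turned to -0.097 within slide 1. Hsp90b1, the HSP90 of the ER (GRP94), tracked BiP with 5.62, 5.91 and 5.76 against 5.39, 5.42 and 5.66, and its difference was 0.27 (limma adjusted p = 0.318). Hyou1 encodes GRP170, the exchange factor of BiP and an ER relative of HSP110, and was at -3.16, -2.87 and -2.84 against -3.61, -3.43 and -3.03. Again db/db replicate 3 overlapped with labelled db/m. The difference of 0.40 (SE 0.18, limma adjusted p = 0.298) turned to -0.13 within slide 1. Another tested probe of the gene gave 0.61 without overlap. The remaining tested probe was dim on db/db replicates 1 and 2 and was tested through labelled db/m alone. Its 0.28 therefore supports no direction. Hyou1 lay among the dimmest 5090 genes, whose median difference was 0.21 with 71.3% higher.

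Sdf2l1, a cofactor that keeps ER substrates soluble in the BiP cycle, was at 0.09, 0.01 and 0.20 in labelled db/m and -0.18, -0.30 and -0.08 in labelled db/db (probe at chromosome 16 of mm9, 17130426 to 17130485). The groups did not overlap. Its difference was 0.29 (SE 0.11, 1.22-fold, limma adjusted p = 0.27). The unadjusted p was over 0.05 without db/m replicate 1 or 3 and without db/db replicate 1 or 2, with differences from 0.23 to 0.29. Pdia6, a disulfide isomerase that attenuates IRE1, likewise had no overlap, at 5.34, 5.46 and 5.42 against 5.02, 5.14 and 5.32, with a difference of 0.25 (limma adjusted p = 0.316). Manf, a secreted ER stress protein, was at 2.03, 2.33 and 2.32 against 1.63, 1.70 and 2.26. Db/db replicate 3 was once more within the range of labelled db/m, and the difference of 0.36 (limma adjusted p = 0.35) was -0.23 within slide 1. Creld2 had 0.17. The lectin chaperones Calr and Canx, the isomerases Pdia3 and Pdia4 and the J-domain proteins Dnajb9, Dnajb11 and Dnajc3 lay between -0.14 and 0.045 on their brightest probes, with a second probe of Pdia3 at -0.34, and of these Calr, Canx and Dnajc3 carried the same ER stress response element as Hspa5 and Pdia6.

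Genes of ER-associated degradation, which retrotranslocates misfolded chains to the proteasome, had differences from -0.092 to 0.065 on their brightest probes, and 0 of 3 passed an unadjusted p under 0.05. Herpud1, a scaffold of the retrotranslocation complex and a sensitive target of the response, was at 5.49, 6.23 and 5.66 in labelled db/m and 5.64, 6.01 and 6.01 in labelled db/db. Labelled db/m held both the highest and the lowest array. The difference was -0.092 (SE 0.22, limma adjusted p = 0.828), and a dimmer probe of Herpud1 gave -0.43 with overlap (limma adjusted p = 0.298). Syvn1, the ubiquitin ligase HRD1, had -0.047. Its partner Sel1l had 0.065 on the brightest probe, but a dimmer probe gave -0.61 without overlap (limma adjusted p = 0.24), so the direction of Sel1l depended on the probe.

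The sensors themselves did not separate the groups. Atf6 was at 0.81, 0.88 and 0.82 in labelled db/m and 1.01, 0.98 and 0.73 in labelled db/db, a difference of -0.073 (SE 0.12, limma adjusted p = 0.738). Ern1 was at 0.87, 1.15 and 1.05 against 0.94, 1.26 and 0.99, a difference of -0.038 (SE 0.14, limma adjusted p = 0.889). Eif2ak3 was at 1.28, 0.94 and 1.01 against 1.03, 0.94 and 0.91, a difference of 0.12 (SE 0.12, limma adjusted p = 0.613). In each sensor the groups overlapped. Xbp1, whose mRNA is spliced by IRE1 to encode the active factor, was at 5.42, 5.01 and 5.27 in labelled db/m and 4.94, 4.65 and 5.0 in labelled db/db (probe at chromosome 11 of mm9, 5425816 to 5425875). The groups did not overlap, although db/m replicate 2 nearly met db/db replicate 3. The difference was 0.37 (SE 0.16, 1.29-fold, limma adjusted p = 0.282). It was no longer under an unadjusted p of 0.05 at 0.28 without db/m replicate 1 and at 0.26 without db/db replicate 2, and the call was also lost without db/m replicate 3 or db/db replicate 1. Other probes of Xbp1 gave 0.14 and 0.29 with overlap, and the array does not tell the spliced from the unspliced form.

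In the integrated stress response, the arm that runs through eIF2 and ATF4, 5 of 6 genes were higher and 1 lower, with a median difference of 0.21 and 0 of 6 at an unadjusted limma p under 0.05. Atf4, which is regulated mainly at translation, was at 5.29, 5.34 and 5.44 in labelled db/m and 5.24, 5.56 and 5.05 in labelled db/db. The groups overlapped, and the difference was 0.073 (limma adjusted p = 0.802). Ddit3 encodes CHOP, the factor of ER stress-induced cell death, and was at -0.05, -0.21 and 0.20 against -0.23, -0.07 and -0.33. Its difference was 0.19 (limma adjusted p = 0.484), and a dimmer probe gave 0.40 without overlap (limma adjusted p = 0.251).

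Chac1, an ATF4 target that degrades glutathione, had the largest difference of the 46 genes. It was at -0.12, -2.35 and -0.69 in labelled db/m and -2.04, -2.61 and -2.29 in labelled db/db. Db/m replicates 1 and 3 were again the highest arrays, and replicate 2 lay among labelled db/db, as in Hspb1. The difference was 1.26 (SE 0.54, 2.4-fold, limma adjusted p = 0.286). It was 1.91 without db/m replicate 2 and -0.035 when that array stood alone for its group. Trib3 and Asns, ATF4 targets that also carry the amino acid response element, had 0.44 and 0.23. Both were highest on db/m replicate 3, as was Ddit3. Sesn2, a stress-induced inhibitor of mTORC1 signalling, went the other way with 3.11, 3.07 and 2.96 against 3.46, 3.08 and 3.62, where the lowest array labelled db/db lay within the range of labelled db/m. Its difference was -0.34 (SE 0.16, limma adjusted p = 0.309), and without db/db replicate 2 it was -0.49 at an unadjusted p under 0.05.

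**Figure D3:**
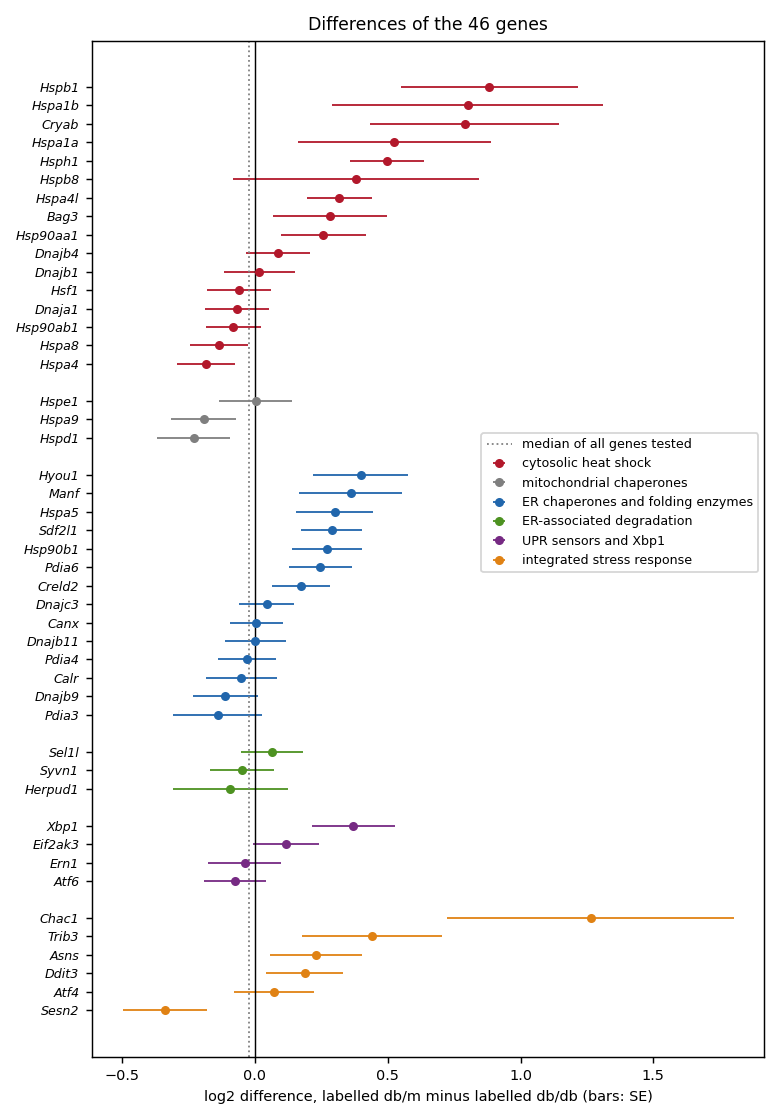
Log2 difference, labelled db/m minus labelled db/db, of each of the 46 genes by group (points), with the standard error from limma (bars) and the median of all 20360 genes tested (dotted line). Chac1 lies at 1.26, Hspa1a, Hspa1b, Hspb1, Cryab and Bag3 between 0.28 and 0.88, and the ER chaperones between -0.14 and 0.40.

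Set side by side, the median difference was 0.27 in the 16 cytosolic heat shock genes and 0.073 in the 27 ER stress genes. The lists were chosen with results of these data known, and no test of the difference between them was made. With median centring of the arrays they were 0.083 and -0.11, against a median of -0.21 over all genes. Median centring shifts every gene by the same -0.19, so the place of the lists against that median could not change. Within slide 1 the medians were 0.18 and -0.061, against -0.063 over all genes tested. The SD of the 3 arrays labelled db/m was over 0.5 in 5 of 16 heat shock genes (Hspa1a, Hspa1b, Hspb1, Hspb8 and Cryab) and in 2 of 27 ER stress genes (Trib3 and Chac1), against 8.68% of all genes, and the spread was not tested between the branches. In labelled db/db it was over 0.5 in 0 of the 46, against 8.3% of all genes. Db/m replicate 1 was the highest array in 8 of 16 heat shock genes and in 4 of 27 ER stress genes, against 3586 of all 20360 genes tested.

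**Figure D4:**
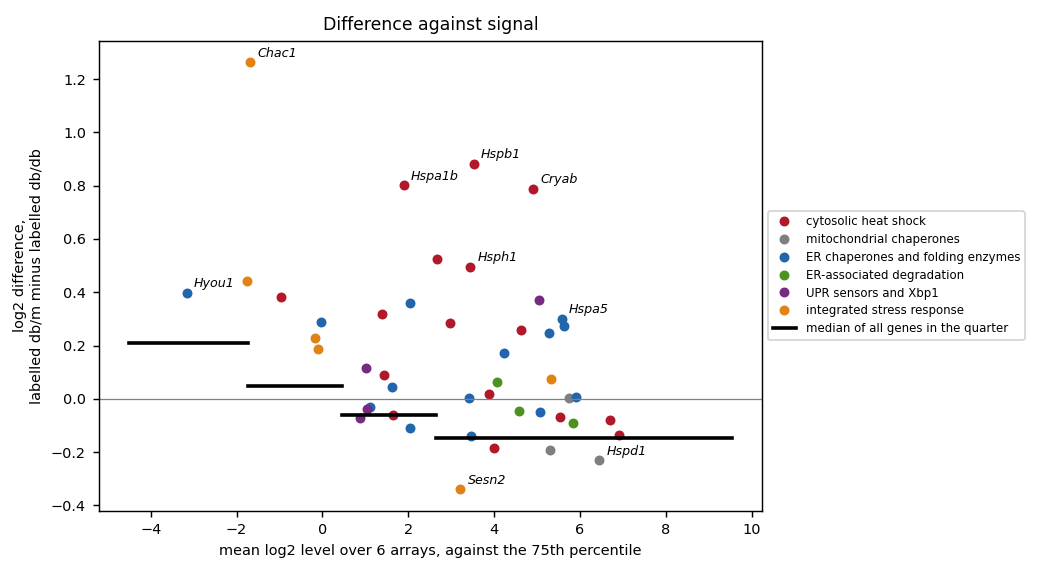
Log2 difference of the 46 genes (points, coloured by group) against their mean log2 level over the 6 arrays, with the median difference of all genes in each of 4 equal bins of signal (black lines). The lines run from 0.21 in the dimmest bin to -0.15 in the brightest, where Hsph1, Hspb1, Cryab and Hspa5 lie above the line and Hspd1 and Sesn2 below it.

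The wider families of the same pathways mostly had negative differences. Among other cytosolic chaperones and co-chaperones, 14 of 36 tested genes were higher and 22 lower, with a median of -0.060 and 1 gene, Hspb11 (-0.28), lower at an unadjusted limma p under 0.05. In the TRiC chaperonin, the cytosolic chamber that folds actin and tubulin, 7 of 8 subunits were lower, with a median of -0.12, and Tcp1 (-0.34) was lower at that threshold. All 12 genes listed for the mitochondrial unfolded protein response were lower, with a median of -0.17, and Trap1, the mitochondrial HSP90, passed at -0.39. Hspa14 (-0.065), listed with the other cytosolic chaperones, was also counted among these 12. The brightest 5090 genes, with their median of -0.15, held 11 of those 12, 7 of the 8 TRiC subunits and 16 of the 36 other cytosolic genes.

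Other ER folding and export genes were higher in 9 and lower in 23 of 32, with a median of -0.092. Serpinh1, the collagen chaperone HSP47, was higher without overlap, at 1.81, 1.87 and 2.01 against 1.32, 1.34 and 1.45, a difference of 0.53 (SE 0.11, limma adjusted p = 0.24). Pdia2 was at least 2.13-fold higher (limma adjusted p = 0.24), a bound taken at the lowest detected signal or its own where higher, since its probe was dim on all 3 arrays labelled db/db. It passed the filter on dim probes through labelled db/m alone, so it had to differ, and its p and place among the counts support nothing. Ero1lb, an oxidase of disulfide isomerases, had -0.38 and Ppib, a lumenal prolyl isomerase, -0.28, both lower at an unadjusted limma p under 0.05. Among other degradation genes, 17 of 18 were lower, with a median of -0.14, and 10 had no overlap, against 15% of all genes. Of these 18, 9 were among the brightest 5090 genes, whose median was -0.15, as were 17 of the 32 folding and export genes. Erlec1 (-0.36), Vimp (-0.31) and Edem2 (-0.29), lectins and an adaptor of retrotranslocation, passed an unadjusted limma p under 0.05. The remaining transducers split, 8 higher and 7 lower of 15, and those at that threshold were Rtcb (-0.41), the ligase that joins the cut Xbp1 ends, and Tmbim6 (-0.36), an inhibitor of ER stress-induced death. Of 36 other integrated stress response genes, 16 were higher and 20 lower. Gdf15 (0.47), a stress hormone, and Ppp1r15a (0.32), the GADD34 subunit that dephosphorylates eIF2, were higher at an unadjusted limma p under 0.05, and Eif2b1 (-0.35), a subunit of the exchange factor of eIF2, was lower.

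Markers of other cell types were read on the same arrays. Immune cell markers were higher in 11 of 13 tested genes, 6 of them at an unadjusted limma p under 0.05, and 1 was lower at that threshold. They had a median of 0.37, and their median deviation was from 0.076 to 0.28 on the arrays labelled db/m and from -0.28 to -0.021 on those labelled db/db. Proximal tubule markers were lower in 18 of 20, 2 of them at that threshold, and 19 of the 20 were among the brightest 5090 genes, of which 21.7% were higher. They had a median deviation from -0.39 to 0.23 on labelled db/m and from 0.016 to 0.22 on labelled db/db. On db/m replicate 2, where Hspa5, Hsp90b1 and Herpud1 were highest, the proximal tubule deviation was 0.23, and on db/db replicate 2, where Hspa5 was lowest, it was 0.22. On db/m replicate 1, where Hspb1 and Chac1 were highest, it was -0.39. Podocyte markers had median deviations of -0.37, 0.30 and -0.096 on db/m replicates 1, 2 and 3. Those of mesenchyme and smooth muscle were -0.49, 0.069 and 0.35, and those of immediate early genes -0.48, -0.021 and 0.40. Endothelium, blood and adipose markers had 0.035, 0.10 and 0.30 on replicate 1, and 0.20, -0.086 and -0.045 on replicate 3. The part of cell composition in these differences was not tested.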

How the data were processed

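Per array, the authors deposited the intensity of every spot as read by Agilent Feature Extraction 10.7.1.1, with background subtracted and no scaling between arrays. A value table in log2 units, deposited beside them, held quantile-normalized columns. Tests used the intensity. Under R 4.3.3 (limma 3.58.1), controls and flagged outliers were dropped (135 probes), replicate spots were averaged, and log2 values were set relative to the 75th percentile of their array. The file of labelled db/m replicate 1 held 71 altered gene names, so names came from another file. A probe was tested when well above background on all 3 arrays of a group (29889 probes), with lmFit and eBayes and Benjamini-Hochberg adjustment, and the brightest tested probe stood for a gene. The number of arrays limits the precision. The equal-variance t-test was chosen here, since the paper names no test for the arrays. Its statistics section names ANOVA followed by Tukey's test. The procedure was tested on simulated data. Probe coordinates are mm9 and promoters GRCm38.p6.

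The 46 genes and all lists were chosen with earlier results of these data known. Values per array were given for genes with an unadjusted p under 0.05, for the largest difference of each group and for a fixed set of regulators, and for some further genes chosen after their values were seen (among them Cryab, Hspb8, Hsp90b1, Pdia6, Manf and Sesn2). Pathway genes were named up to 3 per list and direction at that p. Alternatives were other scalings and backgrounds, filters, test forms, slide and replicate blocks, and single arrays left out. An alternative with db/m replicate 2 alone in its group was added after seeing the data.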

Additional observations from a re-analysis of the deposited data

How the results depend on the processing

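The heat shock median was positive under all 20 alternatives. The t-test, trend and robust variance, the replicate block and the filters on dim probes leave the differences of these genes as they were. The sign could not change there. The ER stress median turned with the slide block, to -0.061 against -0.063 over all genes. It also turned, to -0.11 against -0.21 over all genes, with median centring, which moves every gene by the same -0.19. The number of genes higher at an unadjusted p under 0.05 was 10 with quantile normalization, 2 with median centring and 9 with normexp background. It was 10 with the deposited log2 matrix, 2 without a filter on dim probes, 3 by the equal-variance t-test and 2 with the slide block. The share of all genes passing under each alternative is not given here. Changes in these counts can therefore not be read as particular to these genes. The slide block compares 1 array with 1, so its counts do not speak for or against stability. For db/m replicate 2 alone in its group no count is given, since a lone array has no spread of its own. The number lower was 1 with median centring, with trend and robust variance and with the mean over tested probes. The number past the 2-fold screen was 1 with quantile normalization, median centring, normexp background and the filter on all 6 arrays. It was also 1 with trend and robust variance, the slide block and the replicate block. The heat shock and ER stress medians were 0.36 and 0.20 with quantile normalization, 0.083 and -0.11 with median centring, 0.34 and 0.19 with the deposited matrix, and 0.18 and -0.061 with the slide block, and the heat shock median was 0.021 with db/m replicate 2 alone. Among the other pathway genes, 4 were higher (with Pdia2, tested through labelled db/m alone) and 11 lower, which became 8 and 6 with quantile normalization and with the deposited matrix, 1 and 25 with median centring, and 0 and 3 with the slide block. The number lower was also 6 without the filter, 22 by the equal-variance t-test, 18 with trend and robust variance and 19 with the replicate block.

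With single arrays left out, the number higher ranged from 1 to 10, the number lower from 0 to 1, the number at an adjusted p under 0.05 from 0 to 1, the number past the screen from 0 to 4, the heat shock median from 0.14 to 0.30 and the ER stress median from 0.05 to 0.11. The other pathway genes ranged from 2 to 6 higher and from 4 to 22 lower.

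Some single genes changed sign. Sel1l did so at an unadjusted p under 0.05, with -0.27 for the mean over its tested probes, and the genes that follow did not pass that p on either side. With quantile normalization Ern1 was 0.018, Herpud1 0.076, Hsf1 0.0079, Hspa8 0.044 and Hspd1 0.0030, and with the deposited matrix they were 0.015, 0.074, 0.0057, 0.059 and 0.00053. Median centring gave Atf4 -0.11 and Eif2ak3 -0.070, which is the shift of all genes. The slide block gave Atf6 0.073, Hsf1 0.035, Hspa5 -0.097 and Hyou1 -0.13. Db/m replicate 2 alone gave Chac1 -0.035, Ddit3 -0.0036, Eif2ak3 -0.018, Ern1 0.089, Herpud1 0.34, Hsf1 0.062, Hspa1a -0.36 and Hspa1b -0.47. With single arrays left out, Ern1 ranged from -0.10 to 0.060, Atf4 from -0.043 to 0.21 and Herpud1 from -0.31 to 0.059. The causes were not tested.

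Whether replicate numbers pair the arrays could not be decided. The deviations of arrays with the same number correlated across probes at r = 0.354, 0.148 and 0.0461. Those of arrays with different numbers correlated at r from -0.337 to 0.148. Deviations from a mean of 3 arrays are tied to one another, so these values cannot settle the question. With the replicate block, 7 of the 46 genes were higher and 0 lower at an unadjusted limma p under 0.05. The share of all genes passing with this block is not given here, so the count cannot be read as particular to the 46. With 3 arrays per group and 1 slide that held both groups, differences of the size of those in the ER chaperones could not be separated from the slide.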
